A study of Mus with 5 samples.

Results

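The genes described here are *Rps3a1*, 2 copies of it, *Rpl3* and *Rpl34*. They are 5 of the 12857 genes with deposited values, were picked by their Ensembl identifiers, and were chosen from the difference between transgenic and WT hearts in these same values. Their differences between the genotypes are therefore a description, and no p-value is given for them. The hearts came from E14.5 mouse embryos and had the atria removed, which leaves ventricles and valves. The transgenic embryos were *Nkx2.5Cre/+;Bmp2tg/+*: Cre made from the *Nkx2.5* locus, which is active in cardiac progenitors and myocardium, excises a stop cassette between loxP sites, after which the CAG promoter placed in *Rosa26* transcribes *Bmp2* cDNA together with IRES and eGFP. The transgenic line came from 1 targeted clone of G4 embryonic stem cells, which stem from a cross between 2 mouse strains, so its genetic background is mixed at the start. The control embryos are labelled WT. In the cross that the study describes for such embryos, *Bmp2tg/+* males with *Nkx2.5Cre/Cre* females, littermates without the transgene are *Nkx2.5Cre/+*. Whether the WT pools came from that cross and carry the Cre allele is not given in the sources used here, nor is any later backcross or the strain background of the embryos in the pools. If the WT pools lack Cre, the transgene and the Cre allele cannot be told apart in the comparison. RNA of 4 embryos went into each pool, and 3 transgenic and 2 WT pools have values. The authors excluded 1 further WT pool, as it clustered poorly with the other WT samples. The WT SDs, the overlap of the genotypes and the genes called rest on the 2 pools kept, whose spread may be understated. Values are counts per 1000000 reads (CPM) of a scaled library size. The libraries held 7427905 to 10564780 recovered reads, and the upper limit for a gene without reads was set at 3, or 0.287 to 0.402 CPM by library (counting error only).

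A ribosome is built from a small and a large subunit, each an assembly of ribosomal RNA with a set of proteins that are mostly made from a single gene each. *Rps3a1* encodes a protein of the small subunit, at the side where mRNA leaves. *Rpl3* encodes a large-subunit protein that joins early in assembly and reaches towards the peptidyl transferase centre, and *Rpl34* encodes another protein of the large subunit. The mRNAs of ribosomal proteins are in general abundant in growing tissue, and mammalian genomes carry many intronless copies of them made by reverse transcription. A short read from the mRNA can match the gene and such a copy equally well, and the program used for these values (RSEM) divides such reads among the places they match. The value of a single identifier therefore need not hold all reads of an mRNA.

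*Rps3a1* (ENSMUSG00000028081) lies on chromosome 3 of GRCm38, from 86137940 to 86142668, a span of 4729 bp. The other 2 identifiers are ENSMUSG00000059751, given as *Rps3a3*, and ENSMUSG00000062611, given as *Rps3a2*. RefSeq lists genes of those names as pseudogenes in GRCm38.p6, *Rps3a3* on chromosome 13 from 108670580 to 108671443 (864 bp) and *Rps3a2* on chromosome 14 from 88122952 to 88123833 (882 bp). No table used here pairs these 3 identifiers with names, so the names and positions rest on the list that set the members. No sequence of the gene or of its copies was used.

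*Rps3a1* was lower in transgenic hearts, and both copies were read almost only there. *Rps3a1* measured 711, 746 and 676 CPM in transgenic pools 1, 2 and 3, against 809 and 830.5 CPM in WT pools 1 and 2. Every transgenic pool was below both WT pools, with a gap of 62.8 CPM between the nearest 2. The means were 711 ± 35.0 CPM (SD, n = 3) and 819.5 ± 15.5 CPM (SD, n = 2), so *Rps3a1* was 13.3% lower in transgenic hearts, and its log2 fold change was -0.21 (SE 0.06, from the limma fit across all genes).

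The copy given as *Rps3a3* measured 104, 138 and 119 CPM in transgenic hearts, from 1088, 1286 and 950 reads, while WT pools 1 and 2 gave 1 and 0 reads. The copy given as *Rps3a2* measured 95.8, 94.5 and 108 CPM in transgenic hearts, from 1002, 880 and 862 reads, while the WT pools gave 0 and 3 reads. The genotypes do not overlap for either copy, and both are near the limit of detection in WT hearts. Relative to library size, the transgenic to WT ratio of summed reads was 557 for *Rps3a2*, with an exact 95% counting interval from 191 to 2704. For *Rps3a3* it was 2025, with an interval from 363 to 80023, since it rests on a single WT read. Of the 12857 genes, 11 reached no more than 3 reads in either WT pool, and the 2 copies had the highest values of these 11 in each transgenic pool. Every gene with values reached at least 1 CPM in at least 2 libraries, so these 11 could be present only through their transgenic values. The copies were also chosen on this contrast, so nothing is read from their rank.

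The 3 *Rps3a* identifiers were summed to ask whether reads moved from the gene to its copies. The sum came to 911, 978 and 902 CPM in transgenic hearts, against 809 and 831 CPM in WT. All transgenic pools were above both WT pools, by at least 71.5 CPM. The means were 930.4 ± 41.7 CPM (SD, n = 3) and 819.8 ± 15.7 CPM (SD, n = 2), so the sum was 13.5% higher in transgenic hearts, with a log2 fold change of 0.18 (SE 0.06, limma). A log2 fold change of that size or more in either direction was seen for 26.4% of all genes, and one of the size of that of *Rps3a1* for 21.6%. So the gene was lower and the sum was higher in transgenic hearts, each by more than the SD between pools.

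**Figure D1:**
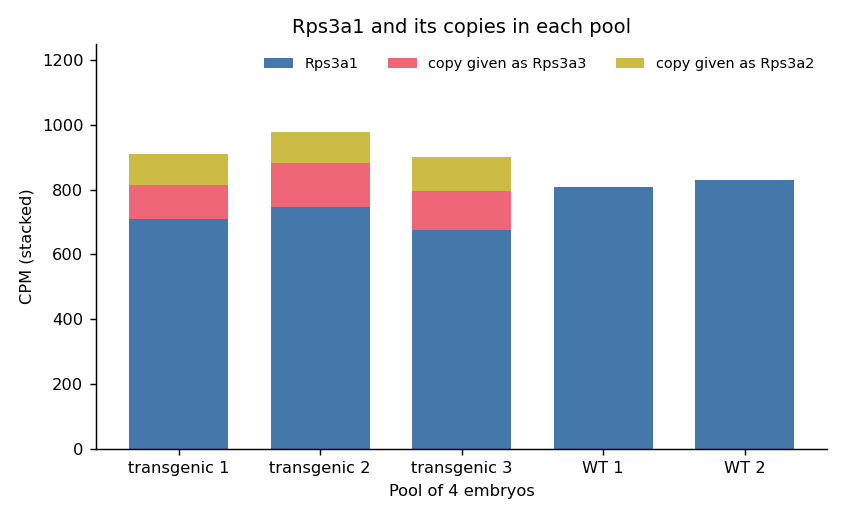
CPM of *Rps3a1* and of the copies given as *Rps3a3* and *Rps3a2*, stacked for each pool of 4 embryos (bars start at 0). The copies are visible in the 3 transgenic pools, where *Rps3a1* is at 676 to 746 CPM, and the stacked height is 902 to 978 CPM in transgenic and 809 and 831 CPM in WT pools.

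The loss of *Rps3a1* was smaller than the gain of the copies. The copies together gained 219 CPM between the genotype means and *Rps3a1* lost 109 CPM, which is 49.6% of the gain and leaves 111 CPM. Further copies of *Rps3a1* were not looked for, so the 111 CPM are a remainder over these identifiers only. Taken pool by pool against the WT means, *Rps3a1* was 109, 73.8 and 144 CPM below WT in transgenic pools 1, 2 and 3, while the copies were 199.6, 232 and 226 CPM above. The loss was thus 54.5%, 31.8% and 63.5% of the gain. Transgenic pool 2 had the most reads of the copies and also the highest *Rps3a1*. When single pools were left out, the percentage of the mean gain lay between 42.3% and 59.3%, the highest of these without transgenic pool 2.

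*Rps3a1* held the larger share of the *Rps3a* reads in each transgenic pool, 78.0% in pool 1 (95% Wilson interval 77.2% to 78.9%), 76.2% in pool 2 (75.3% to 77.1%) and 74.9% in pool 3 (73.9% to 75.9%). The interval of pool 1 lies above those of pools 2 and 3, so this share differed between transgenic pools by more than counting error. It held 99.99% and 99.95% in the WT pools, where the copies had 1 of 7649 and 3 of 6199 reads. Between the copies, *Rps3a3* took 52.1% of the reads in pool 1 (49.9% to 54.2%) and 52.4% in pool 3 (50.1% to 54.7%), but 59.4% in pool 2 (57.3% to 61.4%). The interval of pool 2 does not overlap the others, so the ratio of the copies also differed between transgenic pools by more than counting error. The intervals cover counting error only. The division by RSEM of reads that match the gene and its copies adds an error that was not measured. Whether the shares of RNA differed between these pools was therefore not tested.

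*Rpl3* (ENSMUSG00000060036, chromosome 15, 80077781 to 80083406) was higher in transgenic hearts. It measured 203, 285 and 144 CPM in transgenic pools 1, 2 and 3, against 72.7 and 97.3 CPM in WT. The lowest transgenic pool was 46.5 CPM above the higher WT pool. The means were 211 ± 71.1 CPM (SD, n = 3) and 85.0 ± 17.4 CPM (SD, n = 2), with a ratio of 2.48 and a log2 fold change of 1.26 (SE 0.18, limma). Without transgenic pool 2 or pool 3 the log2 fold change was the lowest and the highest of those with 1 pool left out, 1.02 and 1.51. RefSeq lists *Rpl3-ps1* and *Rpl3-ps2*, copies of *Rpl3*, both on chromosome X and annotated as pseudogenes. Their identifiers are not paired with names here, so a sum like that of *Rps3a* was not made for *Rpl3*. Copies under other names were not looked for.

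*Rpl34* (ENSMUSG00000062006, chromosome 3, 130726827 to 130730398) was lower in transgenic hearts. It measured 66.8, 46.9 and 40.9 CPM in transgenic pools 1, 2 and 3, against 105 and 106 CPM in WT. The genotypes were 37.7 CPM apart at their nearest pools, and the WT pools were nearly equal. The means were 51.6 ± 13.6 CPM (SD, n = 3) and 105 ± 0.846 CPM (SD, n = 2), which is 2.04-fold lower in transgenic hearts, with a log2 fold change of -1.05 (SE 0.13, limma). With 1 pool left out it lay between -1.25 and -0.90, the former without transgenic pool 1 and the latter without transgenic pool 3. RefSeq lists *Rpl34-ps1* on chromosome 6, annotated as protein-coding, and *Rpl34-ps2* on chromosome 13, a pseudogene. Neither could be summed with *Rpl34*, for the same reason.

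**Figure D2:**
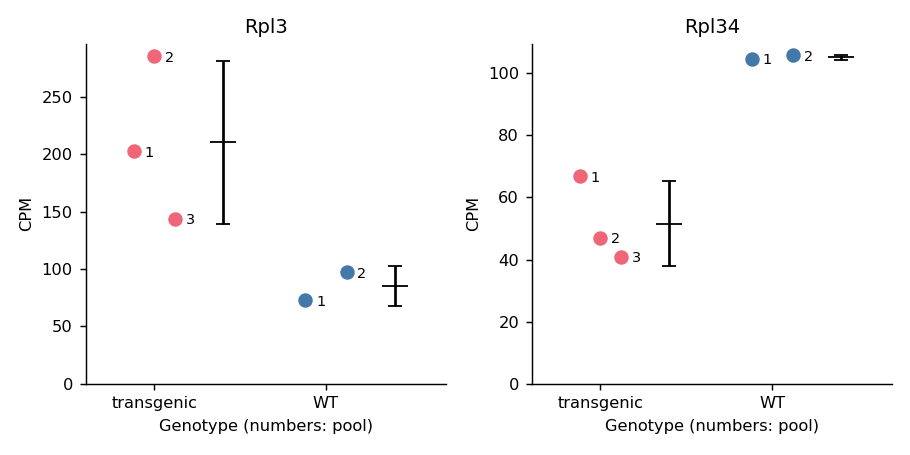
CPM of *Rpl3* (left) and *Rpl34* (right) in each pool, with axes from 0, pool numbers beside the points, and the mean ± SD of each genotype in black (3 transgenic and 2 WT pools). The transgenic pools of *Rpl3* spread from 144 to 285 CPM above WT pools at 72.7 and 97.3 CPM, and those of *Rpl34* lie at 40.9 to 66.8 CPM below WT pools at 105 and 106 CPM.

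The spread within a genotype set *Rpl3* apart from *Rps3a1*, but it is not independent of the choice of the genes. *Rpl3* and *Rpl34* are on the study's list of changed genes, whose test uses this spread. The WT spread is also that of pools kept after one that clustered poorly was excluded. The variance of the *Rpl3* reads between the 3 transgenic pools was 206 times the variance that counting alone gives, against a median of 2.84 over 914 genes within 1.5-fold of its transgenic level, and it was above 99.7% of them. Between the 2 WT pools it was 30.1 times, above 99.7% of 2416 genes of similar level. *Rpl34* varied by 33.4 times counting between the transgenic pools, above 99.4% of 3100 genes, but by 0.0568 times between the WT pools, where its values nearly coincided. *Rps3a3* reached 23.8 times, above 99.5% of 1790 genes, and *Rps3a2* 4.62 times, above 83.7% of 2160 genes. *Rps3a1* and the sum of the 3 identifiers were ordinary for their level, at 14.8 and 17.0 times counting, above 57.4% and 54.3% of genes of similar level. With 3 and 2 pools these ratios are themselves imprecise.

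**Figure D3:**
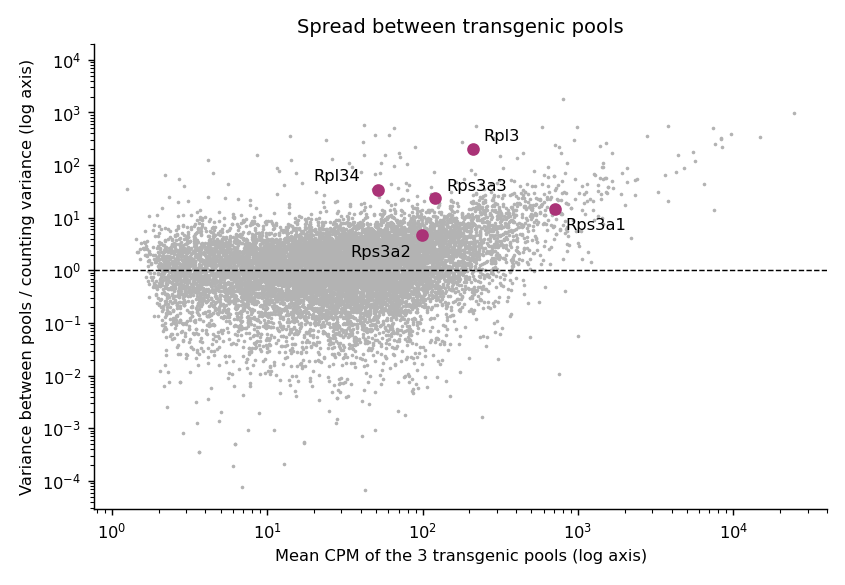
Variance of the reads between the 3 transgenic pools, divided by the variance counting alone gives (vertical, log axis, dashed line at 1), against the mean transgenic CPM (horizontal, log axis), for all genes in grey and the 5 genes in purple. *Rpl3* at 206, *Rpl34* at 33.4 and *Rps3a3* at 23.8 lie above nearly all genes of their level, and *Rps3a1* at 14.8 lies among them.

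Across all genes, limma called 362 of 12857 (2.82%) at a Benjamini-Hochberg adjusted p of 0.05, 157 in the direction of higher and 205 of lower values in transgenic hearts. With libraries rescaled to the same total the split was 125 higher and 251 lower. Of the 5 genes, 4 were among those called: *Rpl3* and both copies, which were higher, and *Rpl34*, which was lower. *Rps3a1* was not. The study's list of 406 changed genes holds *Rpl3* and *Rpl34* but neither copy, and why the copies are absent from it was not tested. The genotypes did not overlap for any of the 5, as was so for 35.7% of all genes. The genes were chosen on this contrast, so nothing is read from these counts. The log2 fold changes of *Rpl3* and *Rpl34* were matched or exceeded in size by 0.288% and 0.397% of all genes, against a median size of 0.10. *Bmp2* itself, which checks the labels, measured 23.0, 27.1 and 23.3 CPM in transgenic hearts, against 14.1 and 10.2 CPM in WT.

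**Figure D4:**
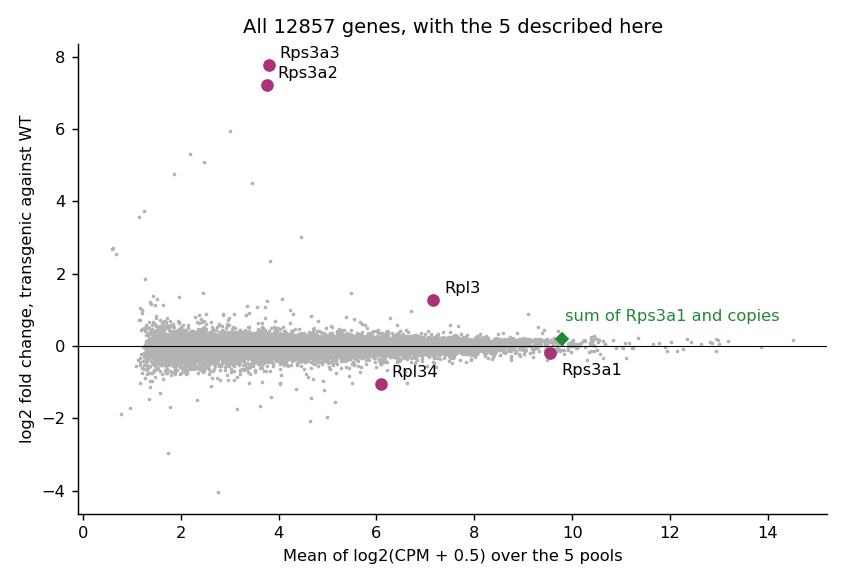
Log2 fold change, transgenic against WT, on the log2(CPM + 0.5) scale (vertical) against the mean log2 value of the 5 pools (horizontal) for all 12857 genes in grey, with the 5 genes in purple and the sum of the *Rps3a* identifiers in green. The copies stand at the top, where the value depends on the pseudocount, *Rpl3* at 1.26 and *Rpl34* at -1.05 lie outside the grey band, and *Rps3a1* at -0.21 and the sum at 0.18 lie within it.

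RefSeq lists 79 protein-coding genes with symbols of cytosolic ribosomal proteins, and 4 of them besides *Rpl3* and *Rpl34* are paired with an identifier here, in the study's list of changed genes. They were chosen by the study on these samples, so their direction is not independent evidence. Of the 4, limma called 1 and left 3. *Rpl35a*, a large-subunit protein gene mutated in some cases of Diamond-Blackfan anaemia, rose from 163 ± 20.3 CPM in WT to 237 ± 17.2 CPM in transgenic hearts (SD, n = 2 and 3), and its log2 fold change was 0.54 (SE 0.08, limma adjusted p = 0.000983). This call was lost without WT pool 2 (limma adjusted p = 0.0748) and without the variance trend (0.165), in a range from 5.14e-08 to 0.165 over 17 other settings. *Rpl27*, also of the large subunit, had a log2 fold change of 0.42, *Rps25*, of the small subunit, 0.22, and *Rpl15*, of the large subunit, -0.22, with limma adjusted p-values of 0.0502, 0.0568 and 0.0584. Each of these 3 passed in some of the other settings, among them *Rpl27* without transgenic pool 1 (limma adjusted p = 0.0155, from 0.0155 to 0.384 over all), *Rps25* without transgenic pool 3 (0.0388, from 0.0250 to 0.430) and *Rpl15* without transgenic pool 2 (0.0328, from 0.0328 to 0.330), and all 3 with edgeR's exact test (adjusted p = 0.0256, 0.0458 and 0.0364).

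Of 333 RefSeq symbols of other copies of ribosomal protein genes, 2 are paired with an identifier, again by the study's list of changed genes, and the others were not examined. Limma called both, but being changed was a condition of being on that list, so this says nothing of such copies as a group. *Rpsa-ps10*, a copy of the gene of the small-subunit protein also known as the laminin receptor, rose from 238 ± 0.936 CPM in WT to 304 ± 30.5 CPM in transgenic hearts (SD, n = 2 and 3), with a log2 fold change of 0.34 (limma adjusted p = 0.0137). *Rps13-ps2* rose from 112 ± 21.3 CPM to 149 ± 16.1 CPM, with a log2 fold change of 0.42 (limma adjusted p = 0.0311). The call of *Rpsa-ps10* was lost without WT pool 1, without WT pool 2 and without the variance trend (limma adjusted p = 0.225, 0.208 and 0.248, from 0.000178 to 0.248 over 17 settings). That of *Rps13-ps2* was lost without transgenic pool 1, transgenic pool 3 or WT pool 2 (limma adjusted p = 0.0944, 0.0659 and 0.437), after quantile normalization (0.0558), without the variance trend (0.303) and with DESeq2 (0.238), in a range from 0.000861 to 0.437 over 17 settings. Both copies were read in WT hearts, where those of *Rps3a1* had 0 to 3 reads.

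**Figure D5:**
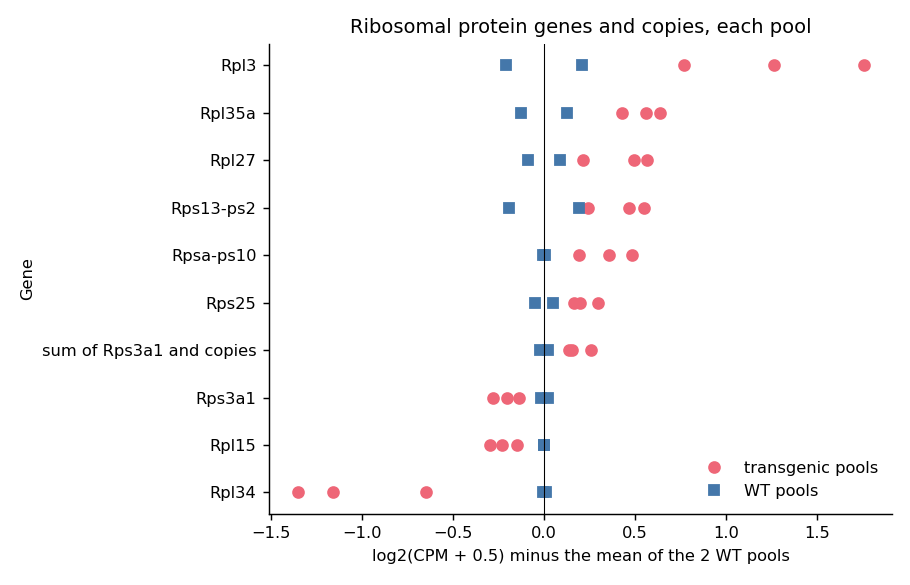
Log2(CPM + 0.5) of each pool minus the mean of the 2 WT pools (horizontal) for ribosomal protein genes and copies (vertical), with transgenic pools as circles and WT pools as squares. *Rpl3* has the widest spread of transgenic pools to the right of WT and *Rpl34* to the left, and *Rps3a1* lies left of WT while its sum with the copies lies right of it.

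Nearest profiles over the 5 pools were sought outside the 5 genes described here, by the root mean square difference of centred log2 values. The copies were thus not compared with each other. For *Rps3a1* the nearest was *Rpl15*, at 0.0165, nearly tied with the second nearest gene at 0.0166. The median over all genes was 0.152. *Rpl15* measured 126, 134 and 120.2 CPM in transgenic hearts, against 148 CPM in both WT pools. For both copies the nearest gene outside the 5 was *Tpm3-rs7*, a copy of the tropomyosin gene *Tpm3*, at 0.97 for *Rps3a3* and 0.62 for *Rps3a2*. *Tpm3-rs7* drew 416, 364 and 358 reads from transgenic hearts, against 0 and 3 from WT. There the sum with the parent gene differed by 0.517 CPM between the genotypes, with SDs of 2.68 CPM (n = 3) and 2.18 CPM (n = 2), whereas the *Rps3a* sum differed by 111 CPM. The nearest to *Rpl3* was *Smad9*, which encodes a BMP-regulated Smad, at 0.21, and the nearest to *Rpl34*, at 0.15, has no name paired with its identifier. Such likeness over 5 pools in 2 groups mostly restates the difference between the groups and its size.

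In a bulk sample, a lower value from fewer cells of a type and from less RNA per cell cannot be told apart. Of 27 marker genes listed for heart muscle, endothelium, valve mesenchyme, epicardium, red cells and macrophages, only the endothelial cadherin gene *Cdh5* is paired with an identifier here, so the tissue label was not checked against muscle markers. *Cdh5* measured 239, 204 and 236 CPM in transgenic hearts, against 275 and 263 CPM in WT (log2 fold change -0.25, limma adjusted p = 0.0563), and its part in the values above was not tested. None of 78 mitochondrial ribosomal protein genes, 13 translation factors or 14 ribosome biogenesis genes on the lists is paired with an identifier, and they are not analysed here.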

How the data were processed

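The authors made TruSeq libraries, sequenced them as single-end reads, trimmed adaptors with cutadapt, quantified genes with RSEM and Bowtie over GRCm38 and Ensembl genes, and scaled libraries with edgeR. They deposited CPM of a scaled library size for 12857 genes in 5 libraries, and 0 columns of values were left unused. In every library 100% of values were whole multiples, within 0.001 of a read, of 1 step, which gave back the reads. limma 3.58.1 (R 4.3.3) compared transgenic with WT pools, using log2(CPM + 0.5), a variance trend, no covariate and Benjamini-Hochberg adjustment over all genes. The filter of at least 1 CPM in at least 2 libraries removed 0 genes. For the sum, the 3 identifiers were replaced by 1 row. The tests were tried on simulated data first. Alternatives included edgeR 4.0.16 and DESeq2 1.42.0 on the recovered reads. Besides the members, genes were named if the study's list pairs a ribosomal symbol with an identifier, or if nearest in profile to a member. Names came from that list, which holds 406 identifiers, 405 of them with a symbol and 2 of them members. Positions came from RefSeq, matched by symbol. The authors' fold changes and p-values in that list were not used. The members and lists were chosen with earlier results of these data known. Replicates are pools of separate embryos by their labels. Pools were used as deposited, since every pair differed by more than counting noise (chi-square per gene of 2.26 or more).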

Additional observations from a re-analysis of the deposited data

How the results depend on the processing

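The log2 fold changes of *Rps3a1*, the *Rps3a* sum, *Rpl3* and *Rpl34* kept their sign and moved by less than 1 SD between pools in all 17 other settings, within -0.25 to -0.17, 0.15 to 0.20, 1.02 to 1.51 and -1.25 to -0.90. Dropping the filter, filtering on a mean of at least 5 CPM and dropping the variance trend cannot change a fold change. Both edgeR quasi-likelihood tests gave nearly the same fold changes as each other. These settings are therefore not separate checks of the fold changes. The log2 fold changes of the copies stayed positive, but their size depends on how a near-zero WT value is treated. For *Rps3a3* (7.77) it was 9.70 and 6.84 with pseudocounts of 0.1 and 1, 7.23 after quantile normalization, 10.68 with edgeR's exact and both quasi-likelihood tests and 10.98 with DESeq2, and 7.63 to 7.91 with a pool left out. For *Rps3a2* (7.21) it was 8.79 and 6.40, 9.02 with the 3 edgeR tests, 9.13 with DESeq2, and 6.79 to 7.64 with a pool left out, the extremes without WT pool 1 and WT pool 2.

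Genes called numbered 10 without the variance trend, 232 with DESeq2 and 43 to 464 with a pool left out (226 without transgenic pool 2, 45 and 43 without WT pool 1 and pool 2, which leaves 1 WT pool assumed to vary like the transgenic pools). Of the 4 ribosomal protein genes besides members, 2 were called, instead of 1, with a pseudocount of 1, a mean of at least 5 CPM, equal totals, both edgeR quasi-likelihood tests and DESeq2, 4 with edgeR's exact test, 0 without the variance trend, and 0 to 2 with a pool left out. The cause was not tested. With the pool number as a replicate block 655 genes and 2 of these 4 were called. The numbers are not shown to pair pools, as deviations of same-numbered pools correlated at -0.03 and -0.05. Under the block, *Rps3a1*, the sum, *Rpl3* and *Rpl34* were at -0.17, 0.20, 1.51 and -0.90. These are the same estimates as without transgenic pool 3, which has no WT pool of its number, so the block adds no separate check. Copies at 3 reads or fewer in WT are limited by depth.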

Other observations

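Of the 406 genes on the study's list of changed genes, 22 lie on chromosome 3, and 5 of these start within 5 Mb of *Rps3a1*. The nearest, *Lrba*, starts 0.0868 Mb away and had a log2 fold change of -0.36 (limma adjusted p = 0.0676). *Lrat*, which encodes a retinol esterifying enzyme, starts 3.25 Mb away and drew 35, 25 and 18 reads from transgenic hearts, against 1 and 0 from WT. *Tpm3* starts 3.93 Mb away and had a log2 fold change of -0.36 (limma adjusted p = 0.00165). It is the parent of the copy whose profile, outside the 5 genes, was nearest to those of the *Rps3a1* copies. The sum of *Tpm3* and *Tpm3-rs7* differed by 0.517 CPM between the genotypes, whose pools overlapped, so the lower *Tpm3* value was not seen in the sum. *Gatad2b* and *S100a16*, at 4.20 and 4.40 Mb, had log2 fold changes of -0.39 and -0.44 (limma adjusted p = 0.0568 and 0.0271). Within 5 Mb of *Rpl34* the list holds 1 gene, *Casp6*, at 0.37 (limma adjusted p = 0.0336), and within 5 Mb of *Rpl3* it holds 2, *Tnrc6b* and *Scube1*, at -0.25 and -0.44 (limma adjusted p = 0.0298 and 0.0170). The listed genes were chosen by the study on these samples, the distances were looked at after the values were seen, and no test of position was made. How many of all measured genes lie in these windows was not counted, so no clustering is read from the counts.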
